A study of Arabidopsis thaliana with 12 samples.

Results

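This report describes how the loss of PIF3 and the joint loss of PIF1, PIF4 and PIF5 combined in their effects on transcript levels. All 12 of the 12 libraries of the series were used as a 2 x 2 design of 4 genotypes with 3 libraries each, namely WT, *pif3*, *pif1pif4pif5* (*pif145*) and *pif1pif3pif4pif5* (*pifq*). Every group consisted of whole seedlings of the Columbia ecotype of *Arabidopsis thaliana* that were 2 days old and had grown in true darkness after white light to start germination and a far-red pulse. Polyadenylated RNA was read as directional 3′-end tags, and 18356 of 33602 loci passed the filter on low counts. Levels are given in CPM, TMM-scaled counts relative to library size, and adjusted p-values follow Benjamini and Hochberg. The measure was the interaction (*pifq* - *pif145*) - (*pif3* - WT) on the log2 scale, with the replicate number as a block. An interaction of 0 means that losing PIF3 changed a transcript by the same factor with and without PIF1, PIF4 and PIF5. An interaction of -1 means that *pifq* stood 2-fold lower than the product *pif3* x *pif145* / WT. The labels give 1 line for each genotype and name no alleles, so a difference that 1 line carries elsewhere in its genome cannot be told apart from the loss of the named genes.

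The PIFs are bHLH regulators that build up in the dark and are destroyed once light has activated the phytochromes. In dark-grown seedlings they hold the plant in etiolated growth, with a long hypocotyl, a closed hook and undeveloped plastids, and they are known to overlap in function. Members of this family bind the G-box CACGTG and related E-boxes, and members of the quartet can occupy the same promoters. Genes were therefore sorted by how the single, the triple and the quadruple mutant compared. Buffered genes changed in *pifq* while *pif3* and *pif145* each lay within 2-fold of WT. Amplified genes moved by at least 2-fold in *pif3* or *pif145* and further in *pifq* than the product of both. Additive genes changed in *pifq* with an interaction interval inside 1.5-fold either way. Opposite behaviour took 2 forms, restored genes, which departed from WT in *pif3* or *pif145* and were within 2-fold of WT again in *pifq*, and reversed genes, in which the effect of one loss changed sign with the other (an adjusted p of at most 0.05 for each sign, with no fold limit). An interaction called in genes outside these classes is listed as other.

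The genotype labels could be checked on the transcripts of the mutated genes in 3 of 4 cases. *PIF3* (AT1G09530, chr1:3075768-3079654) read 52.3, 80.1 and 52.8 CPM in WT, 0.688, 1.71 and 1.02 CPM in *pif3*, 36, 58.6 and 46.1 CPM in *pif145* and 0.418, 1.27 and 1.15 CPM in *pifq*. *PIF1* (AT2G20180, chr2:8704024-8707009) averaged 9.75 CPM in WT and 9.31 in *pif3*, but 0.145 in *pif145* and 0.0955 in *pifq*. *PIF5* (AT3G59060, chr3:21827905-21830837) was counted 129 times in WT and 178 times in *pif3*, but 4 times in *pif145* and 2 times in *pifq*. The 3 transcripts were thus low in the libraries labelled as their mutants, with no overlap. *PIF4* (AT2G43010, chr2:17886101-17889087) read 5.33, 2.83 and 1.73 CPM in WT, 7.27, 4.79 and 2.97 CPM in *pif3*, 6.01, 6.21 and 4.36 CPM in *pif145* and 2.8, 2.95 and 2.55 CPM in *pifq*, so its 3′ tags were still present in *pif145* and *pifq* and check nothing, and its mutation rests on the labels. The *PIF4* tags had an interaction of -1.60 (SE 0.29, adjusted p = 0.00299), with *pif145* above WT at a log2 of 0.81 and *pifq* below *pif145* at -0.98. Library totals ran from 23907577 to 41247734 counts, and no pair of replicate libraries was alike enough to be 1 library deposited again.

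An interaction was called in 472 of 18356 genes (2.57%) at an adjusted p of at most 0.05 in the quasi-likelihood test of edgeR. It was negative in 371 (2.02%) and positive in 101 (0.55%), and 157 (0.855%) reached 2-fold. The estimate had 1 sign in all 3 replicate numbers in 471 of the 472. The same 3 replicate numbers gave the calls, so this is no separate support for them. Over all genes tested the median interaction was 0.004 and the median size without regard to sign was 0.18, about as large as the median SE of 0.18. The negative calls lay mostly among transcripts that were low in *pifq*. Of 1909 genes called in *pifq*/WT (10.4% of genes tested, at an adjusted p of at most 0.05 and 2-fold), 776 were lower (4.23%) and 1133 higher (6.17%). Among those lower in *pifq*, 195 (25.1%) also carried an interaction, against 50 (4.41%) of those higher. The *pifq* and WT libraries enter both contrasts, so these shares are a description. Genes below the fold limit in a mutant could still differ from WT, and in whole seedlings fewer cells of a type and less RNA per cell cannot be told apart.

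**Figure D1:**
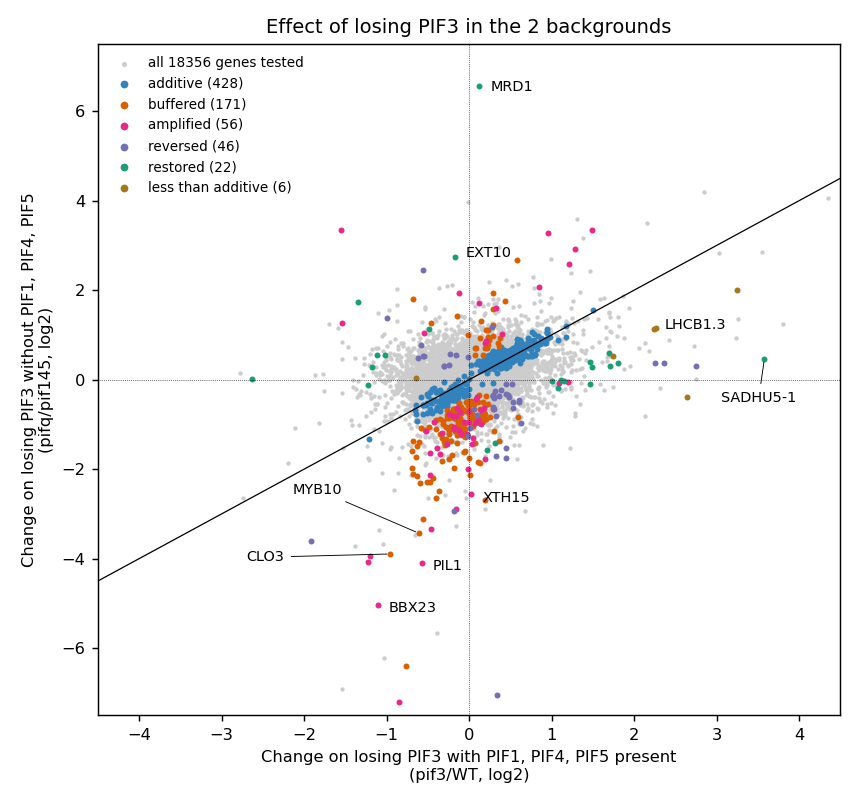
Each point is a gene, with the log2 change on losing PIF3 while PIF1, PIF4 and PIF5 were present (*pif3*/WT) on the x axis and while they were absent (*pifq*/*pif145*) on the y axis. Grey points are all 18356 genes tested, colours are the classes, the diagonal marks an interaction of 0 and 1 gene lies outside the axes. The 428 additive genes lie along the diagonal, most buffered and amplified genes lie below it near an x of 0, and *MRD1* and *SADHU5-1* stand far from it.

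The count depended on the block. The single-step contrasts of the same fit called 135 genes in *pif3*/WT (0.735%), 652 in *pif145*/WT (3.55%), 346 in *pifq*/*pif145* (1.88%, 0.926% higher and 0.959% lower) and 1319 in *pifq*/*pif3* (7.19%, 3.84% higher and 3.35% lower). Without the replicate number as a block the interaction was called in 20 genes, and with the instrument in its place (replicate 1 was read on a GAIIx, replicates 2 and 3 on a HiSeq2000) in 74, all of them among the 472. Leaving out *pif145* replicate 3 gave 254 interaction genes and *pif145* replicate 2 gave 279. The positive calls moved more: 200 without WT replicate 1, 154 without *pifq* replicate 1, 66 without *pif3* replicate 1, 66 without *pif3* replicate 3, 55 without *pif145* replicate 2 and 44 without *pif145* replicate 3. Negative calls numbered 224 and 210 without *pif145* replicates 2 and 3. Negative interactions outnumbered positive ones in each of these settings.

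**Figure D2:**
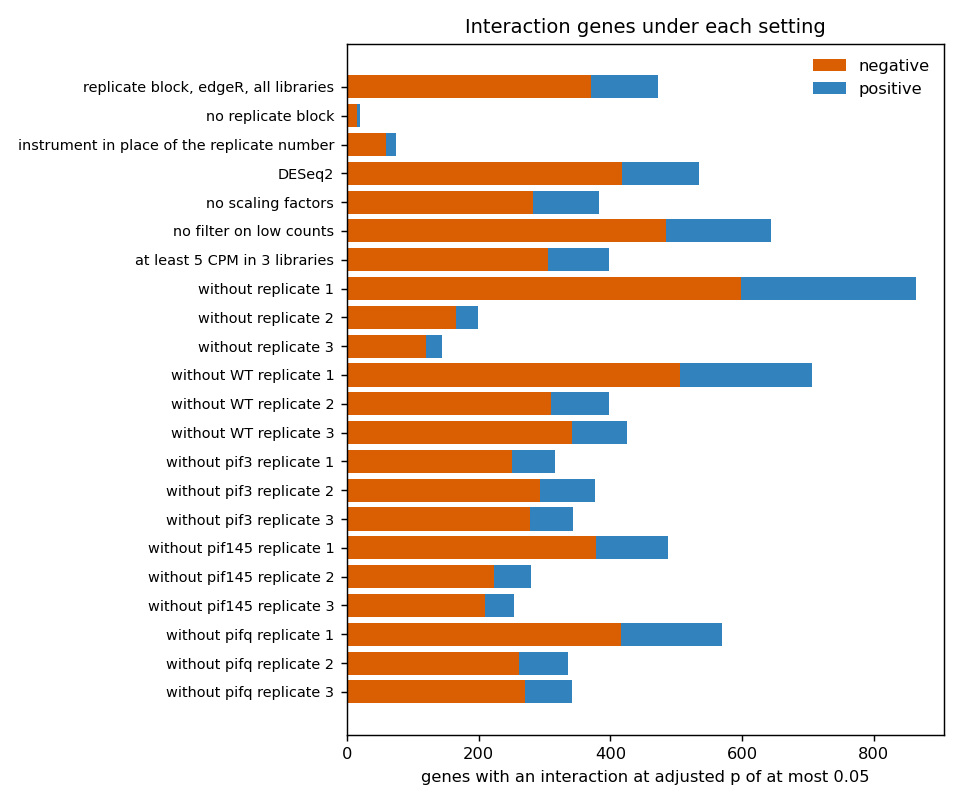
Bars give the number of genes with an interaction at an adjusted p of at most 0.05, split into negative (orange) and positive (blue), for the fit with the block on all 12 libraries and for each other setting. The count is 472 with the block, 20 without it, 74 with the instrument as a term, 534 by DESeq2, and between 144 and 864 when 1 replicate number is left out of all genotypes.

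Promoter stretches of some of the named genes are shown first, because PIFs are known to bind CACGTG and the related CACATG. They were chosen for holding CACGTG and do not stand for all named genes. Each line is 26 bases, 5′ to 3′ on the strand of its gene, with CACGTG in capitals. The *PIL1* sequence is the study's own binding probe and the others come from the reference sequence of TAIR10.1.
PIL1: tctttccgctCACGTGggccttttgt
CLO3: tgaaaataacCACGTGgatggaccat
OLEO3: acacttttgaCACGTGacatggctca
CYS2: gggctcacttCACGTGgagacttaat
LEA4-5: ggctttccaaCACGTGtaggaccaat
LEA7: cgtgagtcacCACGTGtctaacatct
The *PIL1* probe lies at chr2:19298936-19298961 on the minus strand, 1078 bases upstream of the annotated start. The *CLO3* site lies at chr2:14146608-14146633 (minus strand, -68 from the start), that of *OLEO3* at chr5:20820018-20820043 (plus, -40), that of *CYS2* at chr2:13610044-13610069 (minus, -104), that of *LEA4-5* at chr5:2090542-2090567 (minus, -127) and that of *LEA7* at chr1:19619496-19619521 (plus, -218). CACGTG was searched on both strands from 250 bases before to 50 after each start, and 1657 of 18305 promoters of tested genes held it (9.05%). It was in 12 of 171 buffered promoters (7.02%, exact 95% interval 3.68 to 11.9), 41 of 428 additive ones (9.58%, 6.96 to 12.8), 10 of 56 amplified ones (17.9%, 8.91 to 30.4), 9 of 46 reversed ones (19.6%, 9.36 to 33.9) and 7 of 22 restored ones (31.8%, 13.9 to 54.9). All 10 amplified promoters with the box belonged to the 42 genes lower in *pifq* (23.8%, 12.1 to 39.5), while 0 of the 14 higher ones held it. Among the 11 restored genes that were high in *pif3* alone, 5 held it (45.5%, 16.7 to 76.6). Of the named genes, *PIL1*, *MYB10*, *ACS5*, *HFR1* and *XTH15* had no such 26-base stretch in this window. The additive genes *PSBQ-2* and *PSBTN* did. The study lists *PIL1*, *HFR1* and *XTH15* among its PIF3-bound genes, for which it took sites over a longer upstream stretch.

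CACATG, which cannot share letters with CACGTG but can overlap its own reverse complement, was in 2387 of 18305 promoters (13.04%). Here the buffered genes stood highest of the larger classes, with 39 of 171 (22.8%, exact 95% interval 16.7 to 29.8), and 35 of the 145 that were lower in *pifq* (24.1%, 17.4 to 31.9). The share was 17.9% in amplified (10 of 56), 16.8% in additive (72 of 428), 19.6% in reversed (9 of 46) and 9.09% in restored genes (2 of 22). It was 19.0% in amplified (8 of 42) and 17.9% in additive genes (21 of 117) lower in *pifq*. Among genes higher in *pifq* it was 15.4% in buffered (4 of 26), 14.3% in amplified (2 of 14) and 16.4% in additive ones (51 of 311). With 1000 bases before the start, a window chosen after the data were seen, CACATG was in 55.6% of buffered and 39.5% of all promoters. There it was in 59.3% of buffered, 61.9% of amplified and 54.7% of additive genes lower in *pifq*. Among genes higher in *pifq* the shares were 34.6%, 35.7% and 41.2%. A high share there was not particular to buffered genes. These are matches of letters in a window. The intervals cover counting error alone, neighbouring and duplicated genes are not independent, and no binding was measured here.

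Buffered genes were the largest of the named classes with an interaction, 171 (0.932% of genes tested), of which 145 were lower and 26 higher in *pifq*. As many interaction genes fell outside all classes and are listed as other (171, with 133 negative and 38 positive). For the 145 the median log2 change was -0.14 in *pif3*, -0.50 in *pif145* and -1.51 in *pifq*, with a median interaction of -0.88. For the 26 the medians were 0.22, 0.46, 1.39 and 0.76. Limits of 2-fold let a gene with clear partial changes count as buffered. When both *pif3* and *pif145* had to lie within 1.5-fold of WT, 102 of the 171 remained. *MYB10*, *CYP96A5*, *CLO3*, *OLEO3*, *ACS5*, *IAA3*, *IAA19* and *DRM1*, described below, were not among the 102, while *ACS8* and *FHY1* were. At the 2-fold limit the count was 112 without *pif145* replicate 2 and 107 without *pif145* replicate 3.

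*MYB10* (AT3G12820, chr3:4073855-4075643), an R2R3 MYB factor known for the response to low iron, kept its call in every setting tried. In replicates 1, 2 and 3 it read 38.2, 31.9 and 33.3 CPM in WT, 26.7, 20.1 and 21.3 CPM in *pif3*, 30, 29.4 and 30.8 CPM in *pif145* and 3.26, 2.29 and 2.93 CPM in *pifq*. WT, *pif3* and *pif145* stayed within 2-fold of each other, with *pif145* just below WT and *pif3* lowest of them, and the *pifq* libraries lay far below all the others. The product of the single and triple effects would put *pifq* at 19.8 CPM. Its interaction was -2.83 (SE 0.14, adjusted p = 2.37e-10). The log2 change was -0.61 in *pif3*/WT (adjusted p = 0.000204), -0.19 in *pif145*/WT (adjusted p = 0.0953) and -3.63 in *pifq*/WT. *CYP96A5* (AT2G21910, chr2:9341431-9343220), a cytochrome P450 of a family that oxidises wax alkanes, was counted 401 times in WT, 233 times in *pif3*, 210 times in *pif145* and 2 times in *pifq*. Its ratio of *pif145* to *pifq* was 99.1 with a counting interval of 27.1 to 824, and the ratio of WT to *pifq* was 169 (46.6 to 1403). The size of its fitted interaction is therefore poorly known.

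Genes of the oil body were among the buffered ones. Oil bodies store the lipid that feeds a seedling before it can photosynthesise, and caleosins and oleosins coat them. *CLO3* (AT2G33380, chr2:14144831-14146555), a caleosin with peroxygenase activity also known from drought responses, read 9.27, 9.34 and 12.3 CPM in WT, 5.92, 4.58 and 5.32 CPM in *pif3*, 4.4, 7.37 and 7.21 CPM in *pif145* and 0.376, 0.483 and 0.34 CPM in *pifq*. Both *pif3* and *pif145* lay below WT without reaching 2-fold, and the *pifq* libraries were far below both. The interaction was -2.94 (SE 0.35, adjusted p = 9.47e-06). *OLEO3* (AT5G51210, chr5:20820068-20820944), an oleosin, read 132, 103 and 109 CPM in WT, 96.2, 58.8 and 69.2 CPM in *pif3*, 79.9, 70.4 and 81.4 CPM in *pif145* and 21.5, 14.6 and 16.5 CPM in *pifq*, with an interaction of -1.52 (SE 0.13, adjusted p = 5.86e-07). Both genes fell in *pifq*. In *pif3* and *pif145* they lay below WT by less than 2-fold, at -0.95 and -0.72 on the log2 scale for *CLO3* and -0.63 and -0.56 for *OLEO3*. Each has CACGTG in the promoter given earlier. They were not typical of their list. Of 13 tested seed storage and oil-body genes 9 were lower in *pifq*, and 7 of the 9 could be called neither additive nor otherwise. The median interaction was 0.48, and 3 carried an interaction (2 negative, 1 positive), against 2.57% of all genes tested. The summed level of the list was 853 to 1858 CPM in WT and 959 to 1407 CPM in *pif3*, against 238 to 347 CPM in *pif145* and 180 to 303 CPM in *pifq*, and the *pif145* and *pifq* ranges overlapped. There were 5 calls without *pifq* replicate 1. The positive call, *SESA3* (a 2S albumin, 1.34), was lost without 9 of the 12 libraries in turn, at adjusted p-values of 0.0564 to 0.139, and was kept only without WT replicate 2, *pif145* replicate 2 or *pifq* replicate 1.

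Ethylene synthesis had 3 buffered genes among 8 tested, against 0.932% of all genes tested, with a list median of -0.28. *ACS5* (AT5G65800, chr5:26330746-26332812) and *ACS8* (AT4G37770, chr4:17752079-17754157) make the ethylene precursor ACC, the rate-limiting step. *ACS5* read 8.65, 10.6 and 10.1 CPM in WT, 7.63, 7.33 and 6.7 CPM in *pif3*, 5.94, 6.33 and 4.96 CPM in *pif145* and 1.25, 1.32 and 1.15 CPM in *pifq*. The *pif3* and *pif145* libraries formed a modest step below WT and all *pifq* libraries lay well under them. Its interaction was -1.77 (SE 0.20, adjusted p = 1.29e-05). *ACS8* read 4.42, 5.73 and 4.7 CPM in WT, 4.04, 4.07 and 3.12 CPM in *pif3*, 3.22, 3.36 and 4.28 CPM in *pif145* and 0.836, 0.33 and 0.68 CPM in *pifq*, where *pif3* and *pif145* overlapped just below WT and *pifq* lay apart, with an interaction of -2.24 (SE 0.35, adjusted p = 0.000421). Both calls held when any single library was left out and with the instrument in place of the block, and that of *ACS5* also held without the block.

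The called interactions of Aux/IAA genes were all negative. Aux/IAA proteins repress auxin response genes and are themselves induced by auxin. Of 24 tested, 7 had a negative and 0 a positive interaction, against 2.02% and 0.55% of all genes tested. In *pifq* 6 were lower and 1 higher, and the list median was -0.11. *IAA3*, *IAA6*, *IAA7*, *IAA17* and *IAA19* were buffered. *IAA3* (AT1G04240, chr1:1128149-1129689) read 87.7, 95.8 and 78.7 CPM in WT, 73.4, 87.1 and 65.8 CPM in *pif3*, 51, 60.8 and 46.9 CPM in *pif145* and 30.8, 37.9 and 25.8 CPM in *pifq*, a graded series in which *pifq* did not overlap any other genotype, with an interaction of -0.53 (SE 0.10, adjusted p = 0.00383). *IAA19* (AT3G15540, chr3:5264001-5265695) had -0.54 (SE 0.12, adjusted p = 0.0136), and its call was lost (adjusted p 0.0535 to 0.061) without *pif3* replicate 2 or 3, *pif145* replicate 1 or *pifq* replicate 2 or 3. The Aux/IAA count of 7 fell to 4 without WT replicate 2, *pif3* replicate 1, *pif145* replicate 2 or *pifq* replicate 3, to 3 without *pif145* replicate 3, to 2 without *pif3* replicate 3 or *pifq* replicate 2, to 1 without *pif3* replicate 2 and to 0 without the block. Among 49 tested SAUR genes, which promote cell expansion, only *SAUR14* and *SAUR16* were called, in opposite directions. Over all genes tested 2.57% were called, so this count is near the share of all genes. *SAUR14* (AT4G38840, chr4:18124978-18125559) read 12.9, 17.4 and 16.7 CPM in WT, 13.9, 23.4 and 20.3 CPM in *pif3*, 19.2, 21.1 and 24.4 CPM in *pif145* and 59.2, 63.4 and 70.3 CPM in *pifq*, with *pif3* and *pif145* overlapping at or above WT and *pifq* far above all of them, with an interaction of 1.29 (SE 0.14, adjusted p = 1.36e-05). *SAUR16* had -0.60 (SE 0.13, adjusted p = 0.0127) and lost its call without *pif3* replicate 1, *pif145* replicate 2 or 3 or *pifq* replicate 2 (adjusted p 0.0531 to 0.0838). There were 5 SAUR calls without WT replicate 1. SAUR genes have close copies, and reads that matched more than 1 place were not counted.

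Genes that mark carbon starvation in the dark were also partly buffered. *DRM1* (dormancy-associated, AT1G28330, chr1:9933786-9935440) read 1506, 2212 and 2296 CPM in WT, 1811, 2267 and 2554 CPM in *pif3*, 824, 1446 and 1576 CPM in *pif145* and 531, 695 and 721 CPM in *pifq*, with *pif145* below WT within each replicate number and *pifq* below all other libraries. Its interaction was -1.10 (SE 0.12, adjusted p = 9.84e-06). *SEN1* (AT4G35770, chr4:16944878-16946266), a dark- and senescence-induced gene, read 473, 793 and 1056 CPM in WT, 682, 764 and 1298 CPM in *pif3*, 333, 483 and 729 CPM in *pif145* and 196, 269 and 389 CPM in *pifq*. Levels differed between replicate numbers by more than between WT and *pif3*, and within each number *pifq* was lowest. The interaction was -1.10 (SE 0.12, adjusted p = 8.84e-06). *ASN1*, the dark-induced asparagine synthetase, was amplified at -0.49 (SE 0.13, adjusted p = 0.0479), but 9 of 12 single-library omissions ended its call (adjusted p 0.055 to 0.215). It held only without WT replicate 1, *pif145* replicate 1 or *pifq* replicate 1. These 3 were the calls among 7 tested dark-induced genes (2.57% over all genes tested), whose median interaction was -0.07.

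Of 26 tested photoreceptor and light-signalling genes 1 was buffered, against 0.932% of all genes tested. *FHY1* (AT2G37678, chr2:15801418-15802793), which carries phytochrome A into the nucleus, read 51.7, 59.6 and 68.5 CPM in WT, 55.5, 54.5 and 68.9 CPM in *pif3*, 46.5, 48.1 and 63.7 CPM in *pif145* and 24.5, 24.7 and 32.8 CPM in *pifq*. WT, *pif3* and *pif145* overlapped and every *pifq* library lay below them. The interaction was -0.94 (SE 0.10, adjusted p = 1.16e-05). *PHYA* (AT1G09570, chr1:3095160-3100819), the photoreceptor itself, read 358, 358 and 388 CPM in WT, 401, 367 and 389 CPM in *pif3*, 277, 306 and 312 CPM in *pif145* and 202, 186 and 196 CPM in *pifq*, with -0.69 (SE 0.10, adjusted p = 0.00025), and *pifq*/WT at -0.92 stopped short of 2-fold. *PHOT1* had -0.51 (SE 0.09, adjusted p = 0.00344) and *pifq*/WT at -0.72. *PHYA* and *PHOT1* lay outside the classes. These 3 were the only calls among the 26 genes (2.57% over all genes tested), all negative, with a list median of -0.16. There were 5 without *pif145* replicate 1. *PAR1* and *PAR2*, helix-loop-helix proteins that restrain shade growth, were buffered at -0.81 (SE 0.14, adjusted p = 0.00186) and -0.88 (SE 0.13, adjusted p = 0.00043).

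**Figure D3:**
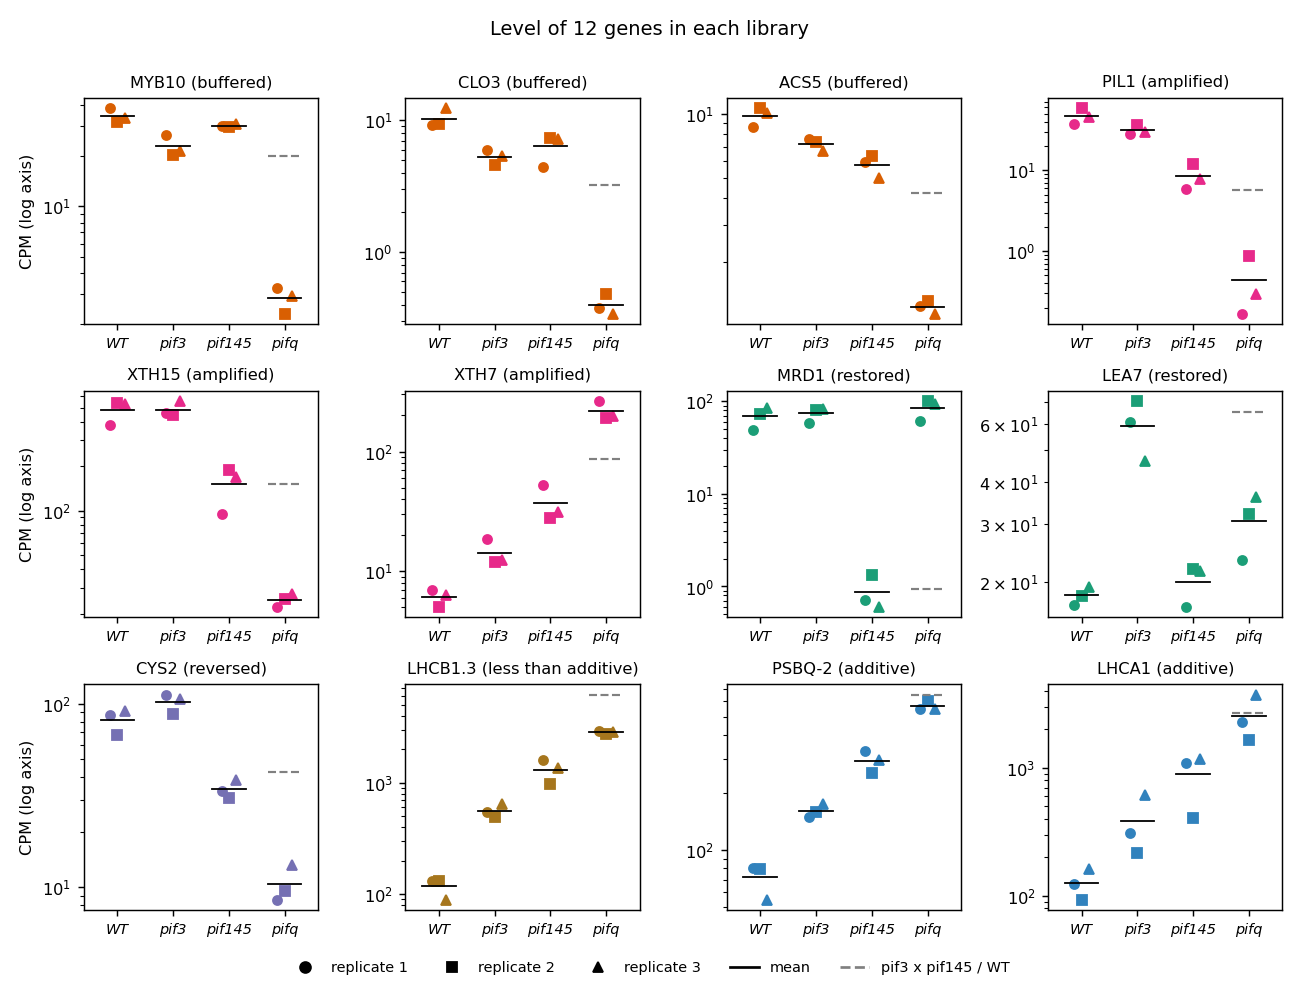
Levels of 12 genes in CPM on a log axis, with 1 point for each library (circle, square and triangle for replicates 1, 2 and 3), a black bar at the genotype mean and a dashed grey line at *pif3* x *pif145* / WT, the level of *pifq* without an interaction. The *pifq* points lie below the dashed line for *MYB10*, *CLO3*, *ACS5*, *PIL1*, *XTH15*, *CYS2*, *LEA7* and *LHCB1.3*, above it for *XTH7* and *MRD1*, just under it for *PSBQ-2* and on both sides of it for *LHCA1*.

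Other buffered genes came from metabolism and gene regulation. *PGL2* (AT3G49360, chr3:18303007-18304466), a 6-phosphogluconolactonase of the pentose phosphate pathway, read 4.07, 6.28 and 4.34 CPM in WT, 5.44, 5.73 and 5.56 CPM in *pif3*, 2.5, 2.56 and 2.97 CPM in *pif145* and 0.334, 0.33 and 0.637 CPM in *pifq*. The *pif3* libraries lay within the range of WT, *pif145* lay below both and *pifq* stood far under all, with -2.88 (SE 0.33, adjusted p = 9.84e-06). *AT5G04120*, of the phosphoglycerate mutase family, had -2.55 (SE 0.46, adjusted p = 0.00222), and *BBX28*, a B-box protein, -0.68 (SE 0.13, adjusted p = 0.00439). Both calls held without any single library. *GA2OX6*, which inactivates gibberellins, had -0.52 (SE 0.13, adjusted p = 0.0307), a call lost without WT replicate 3, *pif3* replicate 1 or 2, *pif145* replicate 2 or 3 or *pifq* replicate 1 or 2 (adjusted p 0.0559 to 0.162). *RGL2*, a DELLA repressor of germination, fitted none of the classes at -0.59 (SE 0.13, adjusted p = 0.015) and lost its call without *pif3* replicate 1 or 2 or *pif145* replicate 2 or 3 (adjusted p 0.0522 to 0.0838). These were the calls among 15 gibberellin genes, against 2.57% of all genes tested.

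Amplified genes numbered 56 (0.305%), 42 of them lower and 14 higher in *pifq*. For the 42 the median log2 change was -0.14 in *pif3*, -1.29 in *pif145* and -2.65 in *pifq*, with a median interaction of -1.12. The median gene of this class was near WT when PIF3 alone was lost and lay well below *pif145* in *pifq*. The 14 higher genes had medians of 0.27, 1.28 and 2.93, with an interaction of 1.58. The class held 37 genes without *pif145* replicate 2.

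The shade-induced regulators gave the largest share of calls of any list, 8 of 15 tested, all negative. Over all genes tested 2.57% were called and 2.02% were negative. The list median was -0.69 against 0.004 over all genes. Lists share members, such as *PIL1* with the PIF relatives and *XTH15* with the XTH genes, so their counts are not separate. These genes are known to be induced by shade, and 11 of the 15 were lower in *pifq*. *PIL1* (AT2G46970, chr2:19295431-19297858), a PIF relative and a marker of the shade response, read 37.2, 58.1 and 46.1 CPM in WT, 27.8, 35.8 and 30.1 CPM in *pif3*, 5.89, 11.9 and 7.89 CPM in *pif145* and 0.167, 0.864 and 0.297 CPM in *pifq*. The *pif3* libraries lay below those of WT, *pif145* lay below both, and *pifq* lay below 1 CPM in every library. Its interaction was -3.52 (SE 0.30, adjusted p = 6.23e-08). *HFR1* (AT1G02340, chr1:465616-467880), a helix-loop-helix protein that inactivates PIFs by pairing with them, read 49.9, 50.2 and 49.4 CPM in WT, 34.1, 39.8 and 34.2 CPM in *pif3*, 6.71, 10.2 and 9.96 CPM in *pif145* and 1.59, 2.26 and 2.21 CPM in *pifq*, with -1.65 (SE 0.18, adjusted p = 8.84e-06). *XTH15* (AT4G14130, chr4:8137020-8138392), a xyloglucan enzyme of the growing wall, read 381, 535 and 529 CPM in WT, 457, 443 and 550.0 CPM in *pif3*, 94.4, 189 and 169 CPM in *pif145* and 22.2, 25.1 and 27.4 CPM in *pifq*. The WT and *pif3* libraries overlapped, at a *pif3*/WT log2 of 0.03 (adjusted p = 0.926), *pif145* lay lower and *pifq* lower again, with -2.59 (SE 0.17, adjusted p = 3.62e-08). On the linear scale, *pifq* - *pif145* - *pif3* + WT was 7.80 ± 3.77 CPM for *PIL1* and 6.86 ± 4.17 CPM for *HFR1* (SD, n = 3). Both are opposite in sign to the log2 interaction. For *XTH15* it was -128 ± 48.3 CPM, of the same sign as the log2 interaction. *IAA29* had -0.95 (SE 0.21, adjusted p = 0.0132) and lost its call without *pif3* replicate 2, *pif145* replicate 3 or *pifq* replicate 2 (adjusted p 0.0549 to 0.082). *PAR1*, *PAR2* and *IAA19* were the buffered members and *CKX5*, a cytokinin oxidase, fitted none of the classes. The count of 8 was 7 to 9 without any single library and 3 (*PIL1*, *XTH15* and *HFR1*) both without the block and with the instrument as a term.

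Further amplified genes had unlike patterns in *pif3* and *pif145*. *BBX23* (AT4G10240, chr4:6368829-6369950), a B-box protein of seedling greening, read 6.3, 6.54 and 11.3 CPM in WT, 3.89, 2.09 and 5.44 CPM in *pif3*, 7.77, 8.01 and 14.4 CPM in *pif145* and 0.167, 0.178 and 0.595 CPM in *pifq*. It was lower in *pif3* than in WT and highest in *pif145*, and nearly lost in *pifq*, with -3.93 (SE 0.37, adjusted p = 3.26e-07). *FLP1* (AT4G31380, chr4:15230008-15230382), a small protein of the flowering-promoting FPF1 family, read 37.7, 52.5 and 63.7 CPM in WT, 23.7, 18.1 and 23.6 CPM in *pif3*, 28.3, 32 and 38.9 CPM in *pif145* and 2.63, 1.14 and 2.38 CPM in *pifq*, where *pif3* lay below *pif145* and *pifq* far below both, with -2.86 (SE 0.26, adjusted p = 8.76e-07). *PRE5* (AT3G28857, chr3:10855623-10856787), an atypical helix-loop-helix growth promoter, had -1.13 (SE 0.15, adjusted p = 9.25e-05). *SULTR2;1* (AT5G10180, chr5:3193017-3197136), a sulfate transporter of vascular tissue, read 62.8, 66.4 and 60.7 CPM in WT, 68.2, 79.2 and 69.7 CPM in *pif3*, 13.3, 22.6 and 18.2 CPM in *pif145* and 3.22, 6.81 and 5.48 CPM in *pifq* and had -1.96 (SE 0.18, adjusted p = 2.05e-06). *AT1G53080*, a legume lectin family protein, had -2.73 (SE 0.39, adjusted p = 0.000128). Each of these 5 calls held without any single library. *AT1G72290*, a Kunitz-type protease inhibitor, was counted 316 times in WT, 176 times in *pif3*, 48 times in *pif145* and 0 times in *pifq*. Taking 3 reads over the *pifq* group as the floor, *pifq* was at least 89.0-fold lower than WT, at least 48.0-fold lower than *pif3* and at least 15.1-fold lower than *pif145*, and no size is given for its interaction. Its call was lost without *pif3* replicate 1 or 3, *pif145* replicate 2 or 3 or *pifq* replicate 2 or 3 (adjusted p 0.0538 to 0.151). *AT4G27790*, an EF-hand protein, had 292, 217, 42 and 4 reads in the same order. Its ratio of *pif145* to *pifq* was 9.91 with a counting interval of 3.6 to 38.1. It lost its call without WT replicate 2, *pif3* replicate 1 or 3, *pif145* replicate 2 or *pifq* replicate 1 or 3 (adjusted p 0.0558 to 0.153).

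Cell wall genes contained both directions. Of 30 tested XTH genes, which cut and rejoin xyloglucan, 8 had a negative and 3 a positive interaction, against 2.02% and 0.55% of all genes tested. The list median was 0.09. The count of 11 was 5 without *pif3* replicate 1, 4 without *pif145* replicate 2, 4 without *pif145* replicate 3 and 7 without *pifq* replicate 2. *XTH7* (AT4G37800, chr4:17775370-17777445) read 6.97, 5.02 and 6.31 CPM in WT, 18.5, 11.9 and 12.4 CPM in *pif3*, 52.3, 27.6 and 31.5 CPM in *pif145* and 262, 189 and 199 CPM in *pifq*. It climbed from genotype to genotype without overlap and stood in *pifq* above the product of both losses (86.8 CPM), with 1.37 (SE 0.14, adjusted p = 4.92e-06). *XTH6*, named after its values were seen, had 1.64 (SE 0.30, adjusted p = 0.00439), so that the largest positive and the largest negative interaction of the list (*XTH15*) were those of amplified genes. *XTH17*, *XTH18* and *XTH19*, whose products are known from roots and hypocotyls, had interactions of -0.78, -0.49 and -0.69 and *pifq*/WT log2 values of -0.61, -0.80 and -0.81. *XTH18* and *XTH19* were chosen after their values were seen. Among 19 alpha-expansins, which loosen walls, 3 were called (2.57% over all genes tested), all negative. *EXPA9* (AT5G02260, chr5:463073-465273) read 88.7, 163 and 192 CPM in WT, 90.8, 140.2 and 148 CPM in *pif3*, 32.6, 86.2 and 89.3 CPM in *pif145* and 19.8, 33.9 and 38.5 CPM in *pifq* and had -0.93 (SE 0.15, adjusted p = 0.00126), and *EXPA11* was buffered at -0.78 (SE 0.13, adjusted p = 0.000979).

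**Figure D4:**
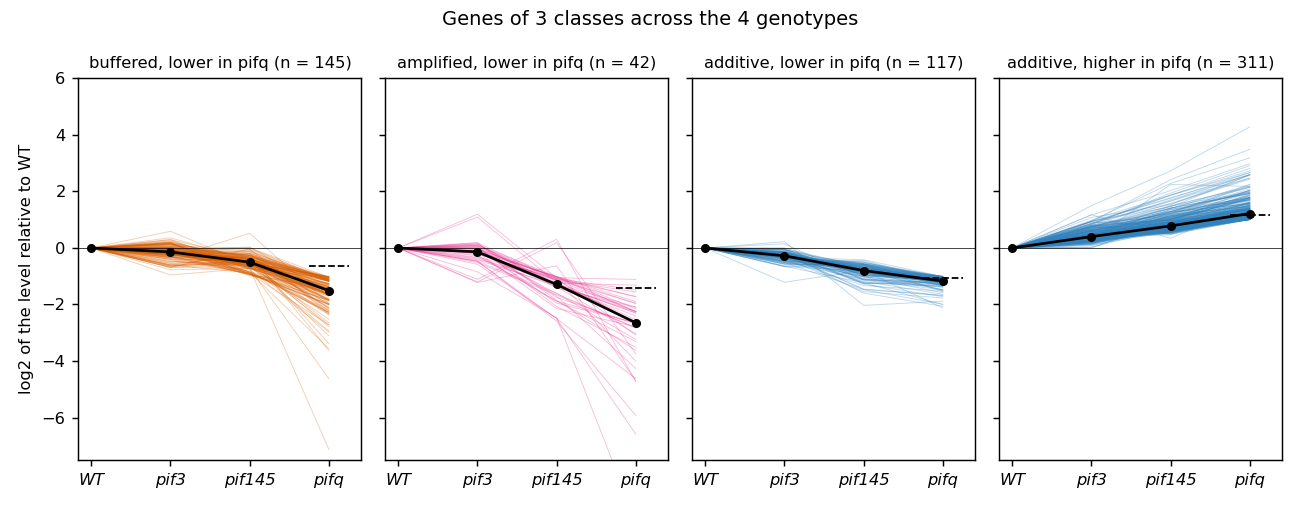
Thin lines are genes, drawn as log2 of the level relative to WT in *pif3*, *pif145* and *pifq*, for buffered genes lower in *pifq* (145), amplified genes lower in *pifq* (42), additive genes lower (117) and additive genes higher in *pifq* (311). Black lines join the medians, the dashed line is the sum of the *pif3* and *pif145* medians, and 1 amplified gene runs below the axis. The *pifq* median falls to -1.51 in buffered and -2.65 in amplified genes, below the dashed line, and lies close to it in both additive panels.

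Additive genes numbered 428 (2.33%), 311 higher and 117 lower in *pifq*. The 311 had median log2 changes of 0.40 in *pif3*, 0.78 in *pif145* and 1.22 in *pifq*, and losing PIF3 in the *pif145* background gave 0.47. Most single steps were small: 234 of the 311 reached 2-fold in neither *pif3* nor *pif145*, 76 did in *pif145* and 4 in *pif3*. The 117 lower genes had medians of -0.28, -0.80 and -1.17, and 89 of them were called in neither. Additive here means that the effects multiply in CPM. On the linear scale, *pifq* - *pif145* - *pif3* + WT took the sign opposite to the log2 estimate in 138 of the 428 (32.2%), in 9 of 56 amplified (16.1%) and in 1 of 171 buffered genes. The limits that define each class bear on these shares, so they are a description. Among buffered genes the linear value was -0.90 ± 1.13 CPM for *CLO3* and -15.5 ± 0.31 CPM for *MYB10* (SD, n = 3). A further 1236 genes called in *pifq*/WT could not be placed, since their interval did not lie wholly inside 1.5-fold either way. Of these, 550 had genotype means below 2 CPM throughout. With the interval widened to 2-fold, 870 genes were additive.

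Photosystem core genes, which encode subunits of photosystems I and II, moved together. Of 23 tested, 22 rose in *pifq* and 0 had an interaction at the adjusted threshold in edgeR (1 passed 0.05 without adjustment, and 0 passed in DESeq2). Their estimates ran from -0.28 to 0.30 with a median of -0.01, and 20 met the limit for additive. The medians were 0.63 in *pif3*, 1.24 in *pif145* and 1.98 in *pifq*. With 2.57% of all genes tested called, 0 calls in 23 genes is near that share. *PSBQ-2* (AT4G05180, chr4:2671523-2673243), of the oxygen-evolving complex, read 80.9, 79.8 and 54.7 CPM in WT, 148, 158 and 175 CPM in *pif3*, 328, 253 and 294 CPM in *pif145* and 545, 599 and 550.5 CPM in *pifq*. The 4 genotypes formed steps with no overlap, and the *pifq* mean of 565 CPM was set against 652 CPM for the product. Its interaction was -0.22 (95% interval -0.56 to 0.13). *PSBTN* had 0.27 (-0.03 to 0.56). *PSAN* had 0.30 (0.02 to 0.59) and passed the threshold without *pif145* replicate 1 (adjusted p = 0.04), as *PSBTN* did without WT replicate 1 (0.0485).

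The antenna genes, which encode the chlorophyll-binding proteins of the light-harvesting complexes, held both additive and less than additive genes. Of 21 tested, 17 were higher in *pifq*, with medians of 0.94 in *pif3*, 2.16 in *pif145* and 2.96 in *pifq* and a median interaction of -0.02. There were 8 additive genes and 3 less than additive ones, against 2.33% and 0.0327% of all genes tested. *LHCA1* (AT3G54890, chr3:20339504-20341176), of the photosystem I antenna, read 124, 93.1 and 161 CPM in WT, 312, 217 and 619 CPM in *pif3*, 1089, 406 and 1172 CPM in *pif145* and 2285, 1648 and 3742 CPM in *pifq*. Replicate 2 was lowest in every genotype and the steps held within each replicate number, with an interaction of 0.06 (-0.37 to 0.49). *LHCB3* had 0.14 (-0.25 to 0.52). The 3 exceptions were members of the LHCB1 group of the major trimeric antenna. *LHCB1.3* (AT1G29930, chr1:10477885-10479114) read 133, 132 and 88.9 CPM in WT, 544, 489.6 and 639 CPM in *pif3*, 1591, 979 and 1352 CPM in *pif145* and 2884, 2747 and 2848 CPM in *pifq*. It was raised in every mutant without overlap, but *pifq* stayed below the 6180.5 CPM of the product, with -1.11 (SE 0.19, adjusted p = 0.00217). *LHCB1.5* (AT2G34420, chr2:14522524-14523568) had -1.10 (SE 0.21, adjusted p = 0.00565). *LHCB1.2* had -1.24 (SE 0.29, adjusted p = 0.0244), and its call was lost without WT replicate 3, *pif3* replicate 3, *pif145* replicate 1 or 3 or *pifq* replicate 3 (adjusted p 0.0576 to 0.102), and in DESeq2. On the linear scale the gain of *LHCB1.3* from losing PIF3 was larger in the triple background by 1079 ± 289 CPM (SD, n = 3), the sign opposite to the log2 interaction. The LHCB1 genes are near-identical copies and reads that matched more than 1 place were not counted, so the values of single members are uncertain.

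Less than additive genes numbered 6 (0.0327%). Besides the LHCB1 genes, *AT1G24580*, a RING/U-box protein, read 0.71, 1.47 and 1.46 CPM in WT, 3.41, 6.08 and 2.79 CPM in *pif3*, 2.89, 5.09 and 3.72 CPM in *pif145* and 3.47, 8.51 and 5.35 CPM in *pifq*, where *pif3*, *pif145* and *pifq* overlapped and all lay above WT, with -1.21 (SE 0.28, adjusted p = 0.0191). Its call was lost without WT replicate 2, *pif3* replicate 1 or 2 or *pif145* replicate 3 (adjusted p 0.0554 to 0.0939). *AT5G53830*, a VQ-motif protein, was the 1 lower member at 0.68 (SE 0.14, adjusted p = 0.00895) and lost its call without *pif145* replicate 3 or *pifq* replicate 2 (0.0503 and 0.051). The class held 13 genes without WT replicate 1, 10 without WT replicate 2, 11 without *pifq* replicate 1 and 3 without *pif145* replicate 3.

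Only genes called in *pifq*/WT could be additive, and other plastid lists held fewer of these than the photosystem core (22 of 23). Of 27 chlorophyll synthesis genes 11 were higher in *pifq* and 10 of these were additive, with a list median of 0.07. The 2 calls were the protochlorophyllide oxidoreductases that reduce protochlorophyllide on illumination. *PORA* (AT5G54190, chr5:21990864-21992814) read 1219, 1664 and 1401 CPM in WT, 1238, 1474 and 1498 CPM in *pif3*, 1469, 1932 and 1868 CPM in *pif145* and 502, 891 and 852 CPM in *pifq*. WT and *pif3* overlapped, *pif145* was somewhat higher and *pifq* lower than every other genotype, with *pif145*/WT at 0.30 (adjusted p = 0.017) and *pifq*/*pif3* at -0.94 (1.29e-07). Its interaction was -1.24 (SE 0.13, adjusted p = 7.04e-06). *PORB* had -0.60 (SE 0.14, adjusted p = 0.0298), a call lost without WT replicate 2 or 3, any 1 of the *pif3* replicates or any 1 of the *pif145* replicates (adjusted p 0.0534 to 0.113). *ELIP2* (AT4G14690, chr4:8418242-8419325), an early light-induced chlorophyll binder, read 5.39, 11.9 and 18.3 CPM in WT, 2.54, 1.96 and 4.66 CPM in *pif3*, 8.02, 23 and 28.1 CPM in *pif145* and 1, 1.37 and 2.42 CPM in *pifq*, lower without PIF3 in either background and higher in *pif145* than in WT within each replicate number, with -1.69 (SE 0.33, adjusted p = 0.00461). Its relative *ELIP1* had under 3 CPM in all libraries and -2.73 (SE 0.80, adjusted p = 0.044), and kept its call only without WT replicate 1, *pif3* replicate 3, *pif145* replicate 1 or *pifq* replicate 1 (lost elsewhere at 0.0734 to 0.176). *RBCS2B*, a small subunit gene of Rubisco, had -0.73 (SE 0.11, adjusted p = 0.000403) while its neighbour *RBCS1B* had 0.47 and did not pass (adjusted p = 0.0639). The Rubisco small subunits are close copies. Carbon fixation had 1 call of 18, with 2 calls without WT replicate 1 or *pifq* replicate 3 and 3 without *pif145* replicate 1. Over all genes tested 2.57% were called, and counts of 1 or 2 in lists of this size tell little beside that.

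Opposite behaviour was seen in 2 classes, 22 restored genes (0.12%) and 46 reversed genes (0.251%). Of the restored, 11 were high and 5 low in *pif3* alone, and 2 were high and 4 low in *pif145* alone. Among the reversed, the effect of losing PIF3 changed sign in 22, that of losing PIF1, PIF4 and PIF5 in 27, and both in 3. There were 56 restored genes without WT replicate 1 and 14 without *pif145* replicate 3. Reversed genes numbered 28 without WT replicate 3, 27 without *pif3* replicate 1, 29 without *pif3* replicate 3, 28 without *pif145* replicate 2, 24 without *pif145* replicate 3 and 30 without *pifq* replicate 2.

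*MRD1* (AT1G53480, chr1:19963047-19964712), known for its response to methionine overproduction, had the largest interaction of the named genes. It read 49, 73.4 and 84.1 CPM in WT, 58.1, 80.9 and 83.7 CPM in *pif3*, 0.718, 1.32 and 0.601 CPM in *pif145* and 60.9, 99.7 and 92.7 CPM in *pifq*. The *pif145* libraries lay far below the others and *pifq* overlapped WT, with 6.44 (SE 0.21, adjusted p = 1.22e-14). *HEI10*, which overlaps *MRD1* on the opposite strand and was chosen after its values were seen, was also restored at 1.62 (SE 0.26, adjusted p = 0.000979). *EXT10* (AT5G06640, chr5:2039598-2041928), an extensin of root hairs, read 6.91, 7.35 and 5.95 CPM in WT, 6.43, 5.37 and 6.01 CPM in *pif3*, 0.742, 1.44 and 0.676 CPM in *pif145* and 4.39, 7.5 and 6.67 CPM in *pifq*, low in *pif145* alone, with 2.91 (SE 0.30, adjusted p = 3.71e-06). It was the 1 call of 8 tested root hair genes, and the summed level of the list was 47.7 to 89.6 CPM over all 12 libraries. There were 2 calls without WT replicate 3 or *pifq* replicate 1. *SADHU5-1* (AT4G01525, chr4:660810-661698), a retroelement locus, read 3.33, 5.6 and 9.85 CPM in WT, 38.8, 65 and 122 CPM in *pif3*, 2.97, 6.09 and 11.3 CPM in *pif145* and 5.22, 7.29 and 15.2 CPM in *pifq*. Each replicate number had its own level, and within each number *pif3* stood far above the other genotypes, with -3.11 (SE 0.14, adjusted p = 5.67e-11). *AT3G01920*, a protein with a RibB-like domain, showed the reverse, 0.748, 0.356 and 1.02 CPM in *pif3* against means of 4.33, 4.34 and 4.38 CPM in WT, *pif145* and *pifq*, with 2.66 (SE 0.29, adjusted p = 7.04e-06). Each of these loci departed from WT in 1 mutant line and lay near WT in *pifq*.

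Late embryogenesis genes were among those high in *pif3*. These proteins protect drying seeds and stressed tissue and many respond to abscisic acid. *LEA7* (AT1G52690, chr1:19619724-19621534) read 17.1, 18.2 and 19.4 CPM in WT, 60.8, 70.1 and 46.5 CPM in *pif3*, 16.9, 21.9 and 21.6 CPM in *pif145* and 23.3, 32.2 and 36 CPM in *pifq*. The *pif3* libraries lay above all others, *pif145* was near WT and *pifq* between, with -1.10 (SE 0.18, adjusted p = 0.00148). *LEA4-5* (AT5G06760, chr5:2089445-2090430) read 47.8, 57 and 64.9 CPM in WT, 140.5, 251 and 219 CPM in *pif3*, 45.5, 104 and 97.2 CPM in *pif145* and 56.9, 116 and 146 CPM in *pifq*, again highest in *pif3* within each replicate number, with -1.44 (SE 0.19, adjusted p = 0.00013). Both have CACGTG in the promoters given earlier. Of the 11 tested genes of the late embryogenesis list, 2 were called (2.57% over all genes tested), 9 had estimates below 0 and the median was -0.60. There were 7 calls without WT replicate 1. The summed level of the list was 1095 to 1121 CPM in *pif3*, against 481 to 883 CPM in WT, 262 to 410 CPM in *pif145* and 299 to 504 CPM in *pifq*. *AT3G15670* and *AT4G36600*, also annotated as late embryogenesis proteins, were reversed at -1.98 (SE 0.26, adjusted p = 0.000125) and -2.45 (SE 0.45, adjusted p = 0.00283). *AT3G15670* read 59, 49.1 and 69 CPM in WT, 229, 362 and 344 CPM in *pif3*, 61, 127 and 134 CPM in *pif145* and 72.9, 134 and 220.2 CPM in *pifq*. Its *pif3* libraries lay above every other one. *LTI65* and *AT3G17520*, chosen after their values were seen, were restored at -1.17 and -1.22. Over the 58 tested genes whose annotation names late embryogenesis, a group also chosen afterwards, 9 were called, all negative. This compares with 2.02% negative calls over all genes tested, and the median was -0.12.

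Reversed genes outside the seed programme had unlike forms. *CYS2* (AT2G31980, chr2:13609093-13609955), a phytocystatin that inhibits cysteine proteases, read 87, 67.8 and 91.4 CPM in WT, 112, 88 and 107 CPM in *pif3*, 33.5, 30.6 and 38.4 CPM in *pif145* and 8.52, 9.55 and 13.3 CPM in *pifq*. It was slightly higher in *pif3* than in WT in each replicate number, at a log2 of 0.33, and lower in *pifq* than in *pif145* at -1.71, with -2.03 (SE 0.14, adjusted p = 3.62e-08). *QQS* (AT3G30720, chr3:12349047-12349933), a regulator of starch content found only in *Arabidopsis*, read 0.775, 0.471 and 0.654 CPM in WT, 0.269, 0.356 and 0.3 CPM in *pif3*, 9.08, 9.57 and 8.9 CPM in *pif145* and 24.8, 23.1 and 23.4 CPM in *pifq*. It was lower in *pif3* than in WT and higher in *pifq* than in *pif145*, with 2.37 (SE 0.30, adjusted p = 4.39e-05). *AT3G21670*, a transporter of the major facilitator superfamily, had -2.21 (SE 0.24, adjusted p = 7.91e-06), and *AT1G78460*, a heme-binding protein of the SOUL family, 3.01 (SE 0.28, adjusted p = 1.87e-06). *BES1*, a factor of the brassinosteroid pathway, was the 1 call among 10 brassinosteroid genes at 0.56 (SE 0.12, adjusted p = 0.0158), with all genotype means between 48.7 and 61.5 CPM, and its call was lost without *pif3* replicate 1, *pif145* replicate 2 or 3 or *pifq* replicate 2 (adjusted p 0.0522 to 0.0781).

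**Figure D5:**
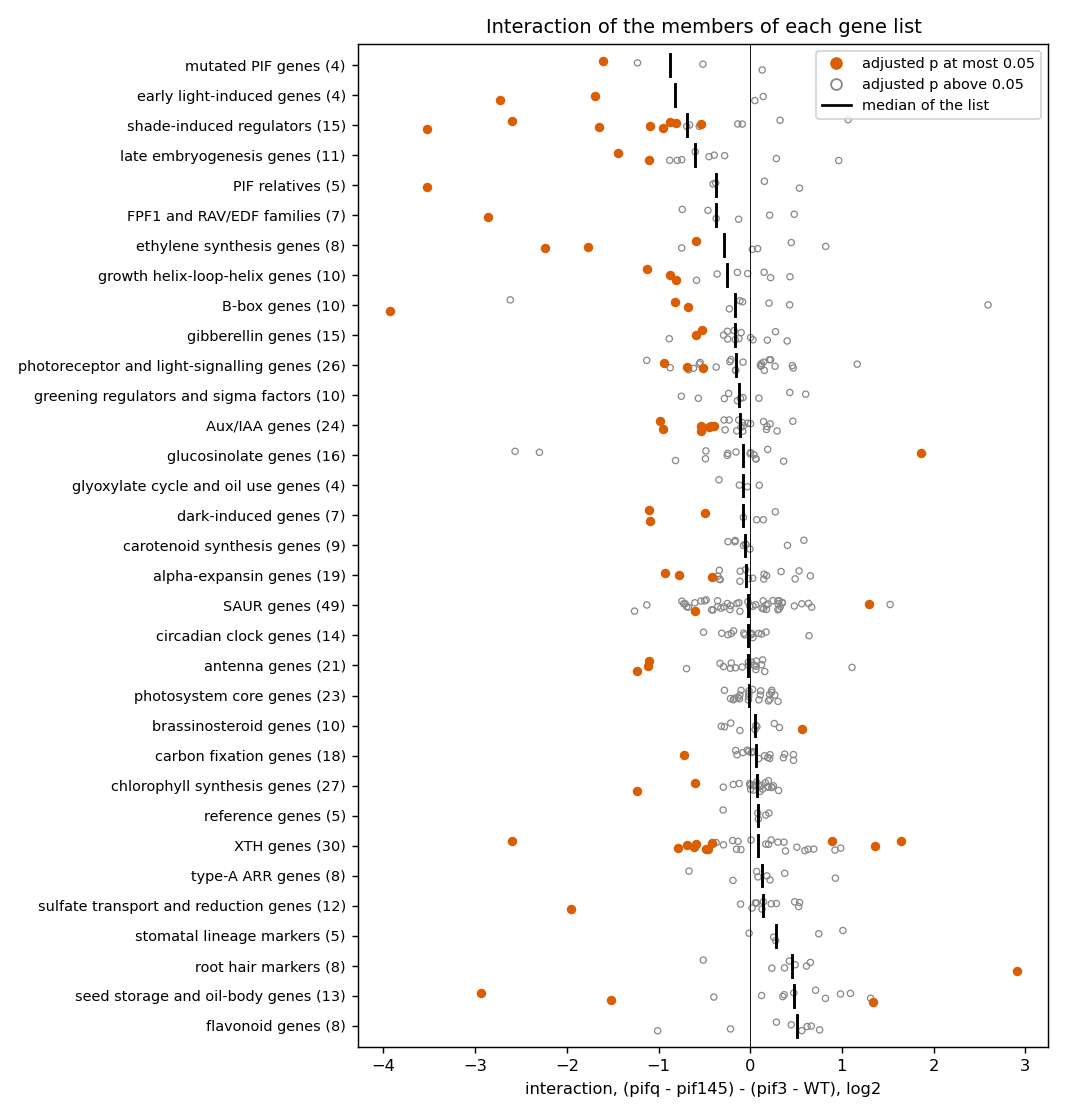
Each point is the interaction (log2) of a tested member of a gene list, orange where the adjusted p is at most 0.05, with a black bar at the list median and the number tested in parentheses. Lists are ordered by their median. Below 2 lists of 4 genes at the top, shade-induced regulators (median -0.69) and late embryogenesis genes (-0.60) lie to the left, the photosystem core genes cluster within 0.30 of 0, and the XTH genes spread to both sides.

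Across the 33 lists the classes fell as follows. Growth regulation, auxin response, ethylene synthesis and dark-induced metabolism held buffered and amplified genes that were low in *pifq*, with few additive ones (2 in growth helix-loop-helix genes, *IBH1* and *PRE6*, and 0 in shade, Aux/IAA, ethylene synthesis and dark-induced lists). Additive genes made up 20 of 23 photosystem core, 8 of 21 antenna, 10 of 27 chlorophyll synthesis and 2 of 18 carbon fixation genes, and none of the carotenoid, greening regulator or early light-induced lists. Only genes called in *pifq*/WT could be additive. These numbered 22 in photosystem core, 17 in antenna, 11 in chlorophyll synthesis and 5 in carbon fixation. The carotenoid and greening regulator lists held 1 each and the early light-induced list 2. Lists with no call in edgeR were photosystem core, flavonoid (0 of 8, with 3 at or under 0.05 before adjustment and 1 by DESeq2), carotenoid (0 of 9, 1 and 0), greening regulators (0 of 10, 1 and 1), glyoxylate cycle (0 of 4, 1 and 0), type-A ARR (0 of 8, 2 and 0), clock (0 of 14, 2 and 0), stomatal lineage (0 of 5, 2 and 0) and reference genes (0 of 5, 1 and 0). Leaving out 1 library gave up to 2 calls in the flavonoid and type-A ARR lists, up to 1 in the photosystem core, carotenoid, greening regulator, glyoxylate cycle and reference lists, and 0 in the clock and stomatal lineage lists. The differences between lists were not tested. Over all genes tested 2.57% carried an interaction, so lists with no call or 1 call are not set apart by that count.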

How the data were processed

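Counts of reads per gene were used as the authors deposited them in 12 libraries, 3 for each of 4 genotypes. Per the study's methods and the submitters' processing notes, directional 3'-end reads of 36 bases were called with CASAVA 1.7.0 and aligned with Bowtie 0.12.7 at 0 mismatches, and uniquely matching reads on the coding strand of the last 500 bases of each transcript were counted, so transcripts that share this sequence are under-counted. The notes name TAIR10 and the methods TAIR9, so gene models can differ slightly. Totals were 23907577 to 41247734 counts. No per-sample column was left unused (0 others). Within a genotype, chi-square over its degrees of freedom was 39.5 to 117 for pairs of libraries, above sampling noise. The study describes its replicates as biological, and p-values measure the spread between these libraries.

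Counts were fitted in R 4.3.3 with edgeR 4.0.16 (filterByExpr, TMM, glmQLFit, glmQLFTest, on limma 3.58.1) on genotype and replicate number over all 18356 genes kept. The replicate block was set by the choice of contrast. The labels do not say what the number marks, beyond replicate 1 being read on another instrument. As a check of pairing, deviations of same-numbered libraries from their genotype means correlated at 0.49 to 0.66 in all 18 pairs, against -0.48 to -0.00019 between different numbers of different genotypes. Deviations within a genotype cancel out, so the negative values follow on average from the positive ones and are no separate check. Interactions were called at an adjusted p of at most 0.05, and contrasts of 2 genotypes also needed 2-fold. Classes were assigned in the order restored, reversed, buffered, amplified, less than additive (called in *pifq*/WT with the opposite sign of interaction) and additive. Additive genes were called in *pifq*/WT with a 95% interval of the interaction within 1.5-fold.

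Named genes were the 4 PIF genes, the 6 with the largest interaction in each class at 2 CPM or more in a genotype and with 1 sign in all 3 replicate numbers, the 6 additive genes that changed most in *pifq*/WT, the 3 members of each list with the smallest interaction p, all members of lists of 4 or fewer, and *MYB10*, *MRD1* and *EXT10*. Other genes were chosen after their values were seen, and are named as such or as class members of a list. A result of 1 named gene is not reported here. Members, lists and classes were chosen with earlier results of these data known. Alternatives were no block, the instrument, DESeq2 1.42.0, no scaling factors, other filters, other class limits and leaving out libraries. The fit of the interaction was tested on simulated data. Coordinates and sequences are RefSeq's on TAIR10.1, and shares of promoters have exact binomial (Clopper-Pearson) 95% intervals. Genes that overlap on opposite strands were kept, since counting used strand.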

Additional observations from a re-analysis of the deposited data

Results flagged for a closer look

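In 69 named genes the loss of PIF3 had a different effect with and without PIF1, PIF4 and PIF5, and 68 of them are given here because the difference itself passed the test of interaction. Groups of 3 libraries are too small for a test of single outlying samples. Of the 69, 51 kept the call without each single library in turn, and 38 of those also without each replicate number. With the instrument in place of the block 30 passed, without the block 14 and in DESeq2 66. Most were named for a large interaction or a small p in these same libraries, so their stability partly follows from that choice. Of all 472 interaction genes, 15.7% passed with the instrument, 4.24% without the block and 94.7% in DESeq2. Values are log2 interactions.

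Among buffered genes, the negative values were *CYP96A5* -5.63, *CLO3* -2.94, *PGL2* -2.88, *MYB10* -2.83, *AT5G04120* -2.55, *ACS8* -2.24, *ACS5* -1.77, *OLEO3* -1.52, *DRM1* -1.10, *SEN1* -1.10, *FHY1* -0.94, *PAR2* -0.88, *PAR1* -0.81, *EXPA11* -0.78, *BBX28* -0.68, *SAUR16* -0.60, *IAA19* -0.54, *IAA3* -0.53 and *GA2OX6* -0.52. The positive values there were *SAUR14* 1.29. Among amplified genes, the negative values were *BBX23* -3.93, *PIL1* -3.52, *AT4G27790* -2.88, *FLP1* -2.86, *ELIP1* -2.73, *AT1G53080* -2.73, *XTH15* -2.59, *SULTR2;1* -1.96, *HFR1* -1.65, *PRE5* -1.13, *IAA29* -0.95, *EXPA9* -0.93 and *ASN1* -0.49. The positive values there were *ESM1* 1.86 and *XTH7* 1.37. Among less than additive genes, the negative values were *LHCB1.2* -1.24, *AT1G24580* -1.21, *LHCB1.3* -1.11 and *LHCB1.5* -1.10. The positive values there were *AT5G53830* 0.68. Among restored genes, the negative values were *SADHU5-1* -3.11, *AT5G37940* -1.79, *LEA4-5* -1.44 and *LEA7* -1.10. The positive values there were *MRD1* 6.44, *EXT10* 2.91, *AT3G01920* 2.66 and *AT1G26250* 1.67. Among reversed genes, the negative values were *AT4G36600* -2.45, *AT3G21670* -2.21, *CYS2* -2.03, *AT3G15670* -1.98, *ELIP2* -1.69, *PIF4* -1.60, *PORA* -1.24 and *RBCS2B* -0.73. The positive values there were *AT1G78460* 3.01, *QQS* 2.37 and *BES1* 0.56. Among genes outside the classes, the negative values were *BBX20* -0.82, *XTH17* -0.78, *PHYA* -0.69, *PORB* -0.60, *RGL2* -0.59, *PHOT1* -0.51 and *ATEXPA3* -0.41. The positive values there were *SESA3* 1.34. The amplified gene *AT1G72290* had 0 reads in *pifq*, so its fitted value of -6.36 depends on the prior count and is no estimate of size. *CYP96A5* (2 reads in *pifq*) and *AT4G27790* (4 reads) are close to that limit. *ESM1* (adjusted p = 0.0488) lost its call without WT replicate 2 or 3, any 1 of the *pif3* replicates, *pif145* replicate 2 or 3 or *pifq* replicate 2 or 3 (adjusted p 0.0566 to 0.317), and in DESeq2 (adjusted p = 0.064). *ATEXPA3* lost its call without WT replicate 2, *pif3* replicate 1 or 2, *pif145* replicate 2 or 3 or *pifq* replicate 2 or 3 (adjusted p 0.0538 to 0.167), and *BBX20* without *pif145* replicate 3 (adjusted p = 0.0684). These 3 also lost their calls without the block and with the instrument in its place.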

How the results depend on the processing

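Negative interactions outnumbered positive ones in every alternative run, and no result reversed its sign, but the counts depended on how replicate numbers were handled. Without the replicate block there were 20 interaction genes (15 negative, 5 positive), 7 called in *pif3*/WT, 314 in *pif145*/WT and 133 in *pifq*/*pif145*, and the classes held 2 restored, 1 reversed, 10 buffered, 7 amplified, 0 less than additive and 59 additive genes. With the instrument in place of the block there were 74 (60 and 14), 43 in *pif3*/WT, and 6, 4, 35, 23, 1 and 191 in the classes. Without a filter on low counts there were 159 positive interactions and 14 less than additive genes. With at least 5 CPM in 3 libraries, which tests fewer genes, 71 were called in *pif3*/WT, 288 in *pif145*/WT, 986 in *pifq*/WT, 148 in *pifq*/*pif145* and 646 in *pifq*/*pif3*, with 14 restored and 3 less than additive genes. Stricter or wider limits gave 102 buffered genes (1.5-fold), 870 additive genes (2-fold) and 157 interaction genes of at least 2-fold. With 1000 bases before the start, chosen after the data were seen, CACGTG was in 17.5% of all, 18.7% of buffered and 19.4% of additive promoters, and CACATG in 39.5% of all, 55.6% of buffered, 55.4% of amplified and 44.9% of additive ones. DESeq2 called 534 genes (447 shared with the 472) and unscaled totals 382 (374 shared). Beyond the construction named, the cause of these shifts was not tested.

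Leaving out 1 replicate number, then 1 library, gave 144 to 864 and 254 to 706 interaction genes, 120 to 599 and 210 to 506 negative, 24 to 265 and 44 to 200 positive. The number left out was 3 for 144, 2 for 199 and 1 for 864. The ranges were 73 to 187 and 98 to 165 in *pif3*/WT, 568 to 673 and 521 to 722 in *pif145*/WT, 1708 to 1994 and 1783 to 2049 in *pifq*/WT, 249 to 414 and 286 to 379 in *pifq*/*pif145*, and 1240 to 1307 and 1226 to 1380 in *pifq*/*pif3*. Classes ranged from 8 to 58 and 14 to 56 restored, 5 to 76 and 24 to 60 reversed, 71 to 249 and 107 to 210 buffered, 29 to 62 and 37 to 61 amplified, 1 to 18 and 3 to 13 less than additive, and 256 to 396 and 344 to 440 additive. Low counts limit the classes, since 550 of the 1236 unresolved genes lay below 2 CPM.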
